A study of Mus musculus with 2 samples.

Results

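The 44 genes described here are markers and regulators of the mouse cell cycle, among 40879 gene symbols in the deposited counts. They were chosen by gene symbol, with earlier results of these data known. All 44 symbols were found, all had at least 10 reads over both libraries, and 31 reached a log2(CPM + 1) of 4 in at least 1 library. CPM is the count of a gene scaled to a common library size, here with TMM factors, which trim extreme genes before the libraries are set to each other. By role, 11 members act in replication licensing and at the replication fork, 4 in nucleotide supply, 9 are cyclins and cyclin-dependent kinases, 15 act in mitosis, 2 are other markers of dividing cells, and 3 are inhibitors or Myc.

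The study asked how reduced Erap1, which encodes an aminopeptidase that trims peptides for antigen presentation, affects the mouse intestine. RNA of intestine tissue from 3 mice was pooled for each genotype and sequenced as 1 library from the 3′ ends of transcripts (QuantSeq). The groups were ERAP1 WT mice, which the labels give as wild type, and ERAP1+/- mice, which the labels give as hetero type. Mice of both groups were on the C57BL/6 background and 8 weeks old when assigned to groups. The methods describe them as germ-free and housed in a specific pathogen-free facility. They were compared at steady state, without treatment. The untreated control groups of the study received plain water for 28 days before tissue was taken, so the mice may have been older at collection. The ERAP1+/- mice descend from the ERAP1 tm1a (EUCOMM) allele, made from 1 clone of embryonic stem cells, crossed with a Cre-expressing strain whose promoter the sources used here do not name, and loxP sites flank exons 6 and 7. Counted reads came to 8114826 for WT and 8907515 for the library labelled ERAP1+/-. For Erap1, 229 reads were counted for WT and 2 for the library labelled ERAP1+/-, a level 137-fold lower (95% interval 37.5 to 1139). These reads lie at the 3′ end of the transcript, outside the deleted exons, so they do not check the deletion itself. A heterozygous mouse keeps 1 intact copy, and a level this low goes against the label, so the library is called by its label throughout and each direction below is that of the labelled library.

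Because each genotype has 1 library, no difference below has a replicate check, no p-value is given, and the spread between mice is unknown. Intervals are exact 95% intervals of the ratio of reads and cover counting error only. They treat reads as independent, and reads amplified by PCR without molecular identifiers are not independent molecules, so the intervals may be too narrow. In whole tissue, a different number of dividing cells and a different amount of RNA per dividing cell cannot be told apart. Genes from skin and striated muscle made up 0.573% of WT reads and 0.0210% of those of the library labelled ERAP1+/-, so the WT library stands apart in these genes.

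A dividing cell passes through a gap phase (G1), DNA synthesis (S), a further gap phase (G2) and mitosis (M). Cyclin-dependent kinases, switched on by cyclins, drive these steps, and inhibitors such as p21 and p27 hold them back. E2F transcription factors activate genes of DNA replication at the start of S phase, whereas the MuvB complex with B-MYB and FOXM1 activates genes of G2 and mitosis through a promoter element called the cell cycle genes homology region (CHR), often beside CCAAT boxes bound by NF-Y. In the intestine, division takes place in the crypts, and cells stop dividing as they move up to become absorptive and secretory cells.

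These promoter classes can be read in the sequence before the start of the members. RefSeq promoters on GRCm38.p6, of 300 bases each with 250 before and 50 after the annotated start, were matched by symbol for 34 of the 44 members, with 37 windows because some genes have more than 1 start. Both strands were searched for 4 E2F motifs (TTTGGCGC, TTTCCCGC, TTTCGCGC and TTTGCCGC), for the CHR (TTTGAA or TTCGAA) and for the CCAAT box. The windows below, of 150 bases before and 30 after the start, are those of the 3 members past 2-fold (Cdk1, Ccnb2 and Cenpa), of Ube2c just under 2-fold on the log2(CPM + 1) scale, and of Mcm6 and Cdc6 as examples of the E2F class. They are written 5′ to 3′ on the strand of the gene, with matches to an E2F motif, the CHR or the CCAAT box on either strand in capitals.
Cdk1, chr10:69352883-69353062, minus strand: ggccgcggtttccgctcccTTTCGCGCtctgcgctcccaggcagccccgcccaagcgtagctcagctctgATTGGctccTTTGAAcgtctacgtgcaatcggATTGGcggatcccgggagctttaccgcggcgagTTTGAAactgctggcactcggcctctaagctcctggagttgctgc
Ccnb2, chr9:70421525-70421704, minus strand: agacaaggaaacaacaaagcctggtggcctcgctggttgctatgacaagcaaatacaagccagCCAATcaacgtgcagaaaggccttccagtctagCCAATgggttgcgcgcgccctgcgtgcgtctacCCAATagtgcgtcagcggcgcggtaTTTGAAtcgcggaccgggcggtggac
Ube2c, chr2:164769779-164769958, plus strand: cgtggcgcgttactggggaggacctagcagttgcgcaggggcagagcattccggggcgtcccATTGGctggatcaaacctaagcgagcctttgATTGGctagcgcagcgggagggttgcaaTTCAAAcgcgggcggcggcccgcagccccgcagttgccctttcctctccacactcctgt
Cenpa, chr5:30666736-30666915, plus strand: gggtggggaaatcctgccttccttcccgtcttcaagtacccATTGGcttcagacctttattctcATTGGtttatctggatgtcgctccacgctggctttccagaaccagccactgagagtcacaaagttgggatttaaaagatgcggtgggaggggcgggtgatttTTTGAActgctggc
Mcm6, chr1:128359676-128359855, minus strand: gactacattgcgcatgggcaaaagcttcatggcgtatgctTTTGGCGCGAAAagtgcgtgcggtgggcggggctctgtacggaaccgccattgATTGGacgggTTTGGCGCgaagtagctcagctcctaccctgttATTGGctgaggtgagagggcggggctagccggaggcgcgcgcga
Cdc6, chr11:98908001-98908180, plus strand: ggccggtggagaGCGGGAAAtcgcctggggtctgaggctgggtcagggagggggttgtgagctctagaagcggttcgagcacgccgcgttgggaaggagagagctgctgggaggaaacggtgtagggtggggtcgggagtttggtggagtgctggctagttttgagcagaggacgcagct

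In the Cdk1 window, an E2F match stands upstream of CHR and CCAAT matches, and the windows of Ccnb2, Ube2c and Cenpa hold CHR and CCAAT matches with no E2F match. The Mcm6 window holds E2F and CCAAT matches with no CHR match, and its first run of capitals is 2 overlapping E2F matches on opposite strands. Of the mitosis members, 11 of 12 windows held a CHR (91.7%), against 19.2% of all 32851 promoter windows in the table, and the exception was Birc5. Of the replication licensing and fork members, 2 of 11 windows did (18.2%). The E2F motifs showed the opposite pattern: 7 of 11 replication windows held one (63.6%), against 0 of 12 mitosis windows and 2.26% of all promoters. None of the 4 nucleotide supply windows held an E2F motif. In the other genes of the same pathways the classes were less separate: 64.8% of 71 mitosis windows held a CHR and 9.86% an E2F motif, and 21.7% and 28.3% of 46 replication windows did. CCAAT boxes were found in 28 of 37 member windows (75.7%) and in 37.4% of all promoters, and the E-box bound by MYC (CACGTG) in 2 of 37 and in 7.15%. A match is a description of letters and not a measured binding site, and the motifs were set with knowledge of these gene classes.

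**Figure D1:**
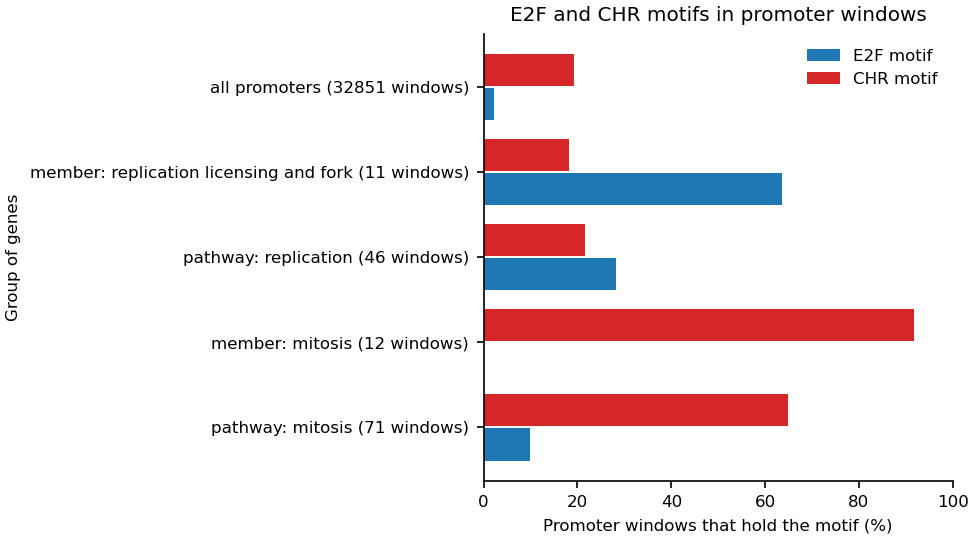
Share of promoter windows (x axis, percent, from 0 to 100) that hold an E2F motif (blue bars) or a CHR (red bars), for all promoters of the table and for the member and pathway lists of replication and mitosis (y axis, with the number of windows). The CHR bar is longest for the mitosis members (91.7%) and the E2F bar for the replication licensing and fork members (63.6%).

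The cell cycle members were mostly higher in the library labelled ERAP1+/-: 39 of 44 had a higher value, with a median log2 difference of 0.41. Over all 16142 symbols with at least 10 reads, 50.3% were higher and the median was 0.00199. Among the 12606 symbols whose summed reads lay within the range of the members (47 to 20880 reads), 50.4% were higher and the median was 0.00458. The counting interval lay above 1 for 25 of 44 members, against a background of 20.6% of all symbols, and below 1 for 3 of 44, against 23.8%. These 3 were Ccnd2, Cdkn1a and Cdkn1b, and the interval included 1 for the other 16.

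Past 2-fold, counted among the 31 members at that level or above, were 3 members, all higher: Cdk1, Ccnb2 and Cenpa. Of the 8013 symbols past that level, 1.39% were called higher and 3.96% lower, and no member was called lower. At 1.5-fold, 10 of 31 members were higher and 0 were lower, against 5.54% and 10.02% of the symbols. The members nearest the threshold were Ccnb2 just over it, with a log2 difference of 1.04, and Ube2c just under it, with 0.9997. The pseudocount of 1 in log2(CPM + 1) lowers these differences, and the ratio of Ube2c reads without it was 2.05. Bub1b differed by 1.05 but lay below the level required, at a log2(CPM + 1) of 2.62 and 3.67.

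The direction depends on the scaling for 4 of the 5 members with lower values. With the total count in place of TMM, 42 of 44 members were higher (Ccnd2, Cdk2 and Kif20a turned) and 6 were called. Relative to the summed reads of intestinal epithelium markers, 43 were higher, all but Cdkn1b, and 8 were called. These scalings moved the median of all symbols by 0.112 and 0.256 on the log2 scale. They also moved the share of higher genes among all called symbols, which was 25.9% with TMM, 40.1% with the total count and 58.4% with the epithelium markers. Over all symbols, 111 were called higher with TMM, 166 with the total count and 281 with the epithelium markers. Called lower were 317, 248 and 200, so the background of the member counts moved with the scaling as well.

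**Figure D2:**
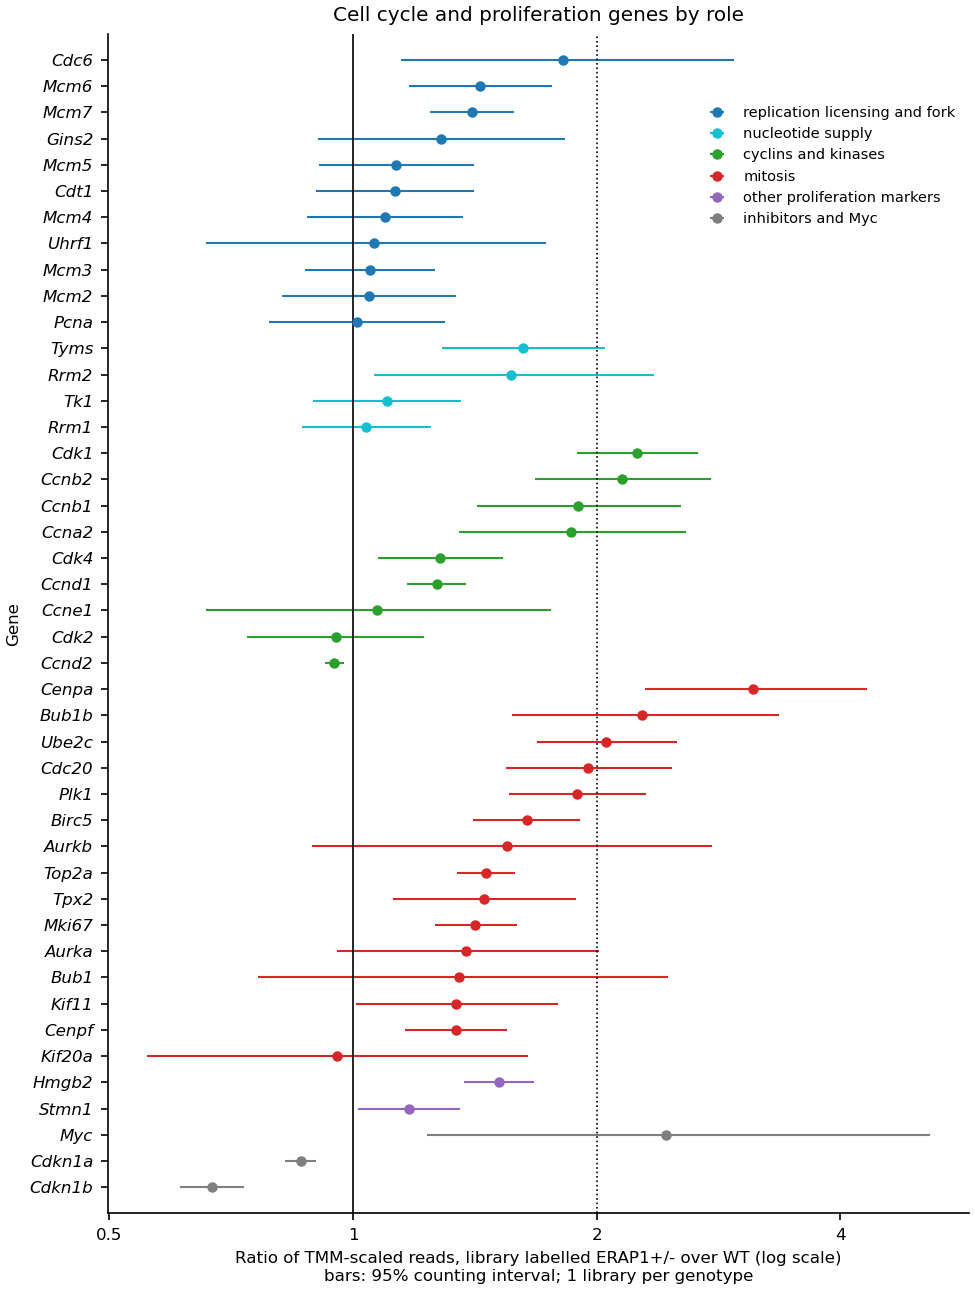
Ratio of TMM-scaled reads in the library labelled ERAP1+/- over the WT library (x axis, log scale) for the 44 members (y axis), coloured by role, with bars for 95% counting intervals and 1 library per genotype. The solid line marks a ratio of 1 and the dotted line 2; Cenpa stands furthest to the right (3.12) and Cdkn1b furthest to the left (0.670).

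The replication licensing and fork members were all higher by their point values, mostly by little. Their median log2 difference was 0.16, and the interval lay above 1 for 3 of 11, against 20.6% of all symbols. Licensing loads the MCM helicase, made of Mcm2 to Mcm7, onto origins in G1. Mcm7 had 440 WT reads and 738 in the library labelled ERAP1+/-, a ratio of 1.40 (95% interval 1.24 to 1.58). Mcm6 had 156 and 268 reads, a ratio of 1.44 (1.17 to 1.76). For the other subunits of the same ring the interval included 1. Mcm2 had 119 and 149 reads, with a ratio of 1.05 (0.816 to 1.34). Mcm3 had 211 and 265 reads, with a ratio of 1.05 (0.872 to 1.26). Mcm4 had 145 and 190 reads and Mcm5 had 147 and 199, with ratios of 1.09 (0.877 to 1.37) and 1.13 (0.909 to 1.41). The intervals of the 6 subunits of the helicase thus lay above 1 for Mcm6 and Mcm7 and included 1 for Mcm2, Mcm3, Mcm4 and Mcm5. All 6 intervals overlapped, so a difference between the subunits is not shown.

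Among the factors that load or start the helicase, Cdc6, which recruits it to the origin, had 28 and 61 reads, which gave a ratio of 1.82 (95% interval 1.15 to 2.96). Cdt1, its partner in loading, had 141 and 190 reads and a ratio of 1.13 (0.900 to 1.41). Gins2, a subunit of the GINS complex that activates the helicase, had 56 and 86 reads, with a ratio of 1.28 (0.906 to 1.83). Cdc6 was thus the only one of these 3 whose interval excluded 1, on few reads. Pcna, the sliding clamp of the DNA polymerases, had 119 and 144 reads, a ratio of 1.01 (0.787 to 1.30), the smallest difference of the group. Uhrf1, which reads hemimethylated DNA behind the fork for maintenance methylation, had 33 and 42 reads, a ratio of 1.06 (0.658 to 1.73).

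Of the 4 nucleotide supply members, 2 had intervals above 1 and 2 had intervals that included 1, which does not by itself separate them. Tyms, thymidylate synthase, had 115 WT reads and 223 in the library labelled ERAP1+/-, a ratio of 1.62 (1.29 to 2.05). Rrm2, the small subunit of ribonucleotide reductase that limits the enzyme in S phase, had 41 and 77 reads, a ratio of 1.57 (1.06 to 2.35). Both intervals lay above 1. Rrm1, the large subunit, had 218 and 271 reads and a ratio of 1.04 (0.866 to 1.25). Tk1, thymidine kinase of the salvage pathway, had 160 and 211 reads and a ratio of 1.10 (0.893 to 1.36). Over the 15 replication and nucleotide members together, 2129 reads in the WT library stood against 3114, a ratio of 1.22 (1.16 to 1.29). Their intervals lay above 1 for 5 of 15, against 20.6% of all symbols.

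The cyclins and kinases are given in 2 sets by phase, formed with earlier results of these data known. Differences were larger for Ccna2, Ccnb1, Ccnb2 and Cdk1, of S phase, G2 and mitosis, than for those of G1 and the G1/S transition. Cdk2, which acts at the entry into S phase, is in the second set. Cdk1, the kinase that drives entry into mitosis (chr10:69335146-69352938 in GENCODE M21 on GRCm38, minus strand), had 184 WT reads and 494 in the library labelled ERAP1+/-. Its ratio was 2.24 (95% interval 1.89 to 2.67). Ccnb2, a B-type cyclin that activates Cdk1 (chr9:70407692-70421547, minus strand), had 91 and 234 reads, a ratio of 2.15 (1.68 to 2.77). The other B-type cyclin measured, Ccnb1, had 71 and 161 reads, a ratio of 1.89 (1.42 to 2.54). Ccna2, the A-type cyclin of S phase and G2, had 58 and 129 reads and a ratio of 1.86 (1.35 to 2.58). Together these 3 cyclins and Cdk1 had 404 and 1018 reads, a ratio of 2.10 (1.87 to 2.37), and the interval of each of the 4 lay above 1.

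The cyclins and kinases of G1 and the G1/S transition differed less. Ccnd1, a D-type cyclin that answers growth signals, had 939 and 1426 reads, which gave a ratio of 1.27 (95% interval 1.17 to 1.38). Cdk4, its kinase partner, had 210 and 322 reads, with a ratio of 1.28 (1.07 to 1.53). Ccne1, which activates Cdk2 at the entry into S phase, had 32 and 41 reads and a ratio of 1.07 (0.658 to 1.76). Cdk2 had 122 and 139 reads and a ratio of 0.952 (0.741 to 1.22), which includes 1. Ccnd2, another D-type cyclin, had 9778 and 11102 reads, far more than any other member, with a ratio of 0.948 (0.923 to 0.975). With the total count in place of TMM the direction of Ccnd2 turned, to a log2 difference of 0.05. Ccnd2 holds a large share of the members' reads: summed over all 44, 22339 reads stood against 28826, a ratio of 1.08 (1.06 to 1.10), and without Ccnd2 the ratio was 1.18 (1.15 to 1.21).

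The mitosis members had the largest median of the 6 roles. Their median log2 difference was 0.50, 14 of 15 were higher, the interval lay above 1 for 11, and 2718 reads in the WT library stood against 5090, a ratio of 1.56 (95% interval 1.49 to 1.64). Cenpa, the histone H3 variant that marks centromeres (chr5:30666777-30674830, plus strand), had 53 and 198 reads. Its ratio of 3.12 (2.29 to 4.31) was the largest of all 44 members. Cenpf, another kinetochore protein, had 311 and 499 reads and a ratio of 1.34 (1.16 to 1.55), so that Cenpa reads per Cenpf read were 2.33 times as many in the library labelled ERAP1+/- (1.65 to 3.32). Birc5 (survivin), a subunit of the chromosomal passenger complex, had 260 and 510 reads, with a ratio of 1.64 (1.41 to 1.91). Aurkb, the kinase of that complex, had 21 and 39 reads and a ratio of 1.55 (0.890 to 2.78). The interval of Aurkb included 1 and that of Birc5 did not, with a similar ratio and many more reads.

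Of the 4 members that act in mitotic exit and the spindle checkpoint, Ube2c, Cdc20 and Bub1b had intervals above 1, and that of Bub1 included 1. Ube2c, the ubiquitin-conjugating enzyme of the anaphase-promoting complex (chr2:164769898-164778822, plus strand), had 144 and 354 reads, which gave a ratio of 2.05 (95% interval 1.69 to 2.51). Cdc20, the activator of that complex, had 104 and 243 reads and a ratio of 1.95 (1.55 to 2.48). The enzyme and its activator thus had ratios near 2. Bub1b (BUBR1), which holds Cdc20 in check until chromosomes are attached, had 40 and 109 reads, a ratio of 2.28 (1.57 to 3.36). Bub1, the checkpoint kinase, had 21 and 34 reads and a ratio of 1.35 (0.763 to 2.45).

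Plk1, the polo-like kinase of mitotic entry and spindle assembly, had 153 and 346 reads, which gave a ratio of 1.89 (95% interval 1.56 to 2.30). Aurka, the kinase of the spindle poles, had 49 and 81 reads, a ratio of 1.38 (0.957 to 2.01), and Tpx2, which activates Aurka on the spindle, had 95 and 165, a ratio of 1.45 (1.12 to 1.89). Of these spindle genes, the intervals of Plk1 and Tpx2 lay above 1 and that of Aurka included it. Kif11, the motor that separates the spindle poles, had 81 and 130 reads and a ratio of 1.34 (1.01 to 1.79). Kif20a, a motor of cytokinesis, was the exception of the group, with 28 and 32 reads and a ratio of 0.955 (0.557 to 1.65). Mki67, which coats mitotic chromosomes and is the usual marker of dividing cells, had 464 and 787 reads, with a ratio of 1.42 (1.26 to 1.59). Top2a, the topoisomerase that untangles sister chromatids, had 894 and 1563 reads, a ratio of 1.46 (1.34 to 1.59).

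**Figure D3:**
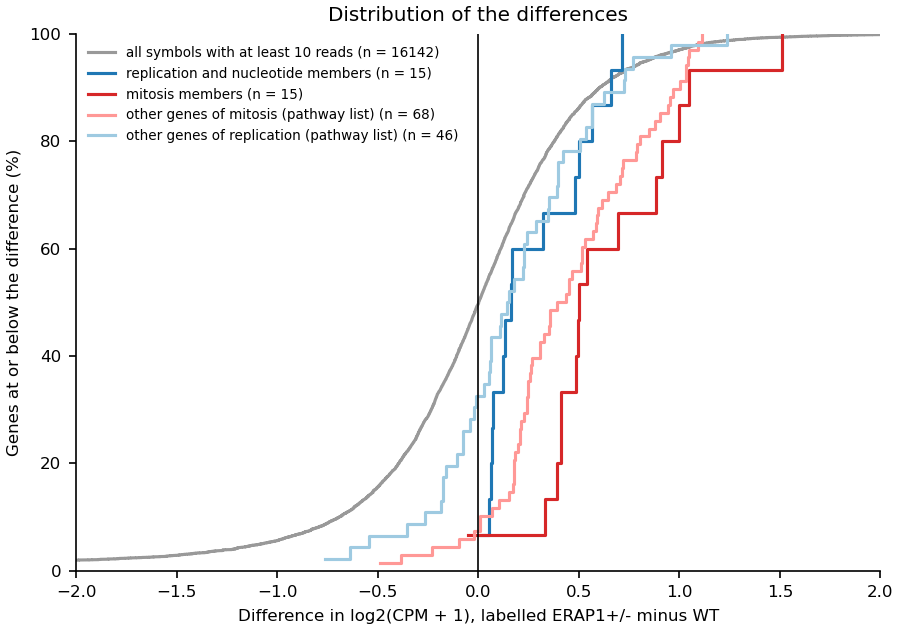
Cumulative share of genes (y axis, percent) at or below each difference in log2(CPM + 1) of the library labelled ERAP1+/- minus the WT library (x axis, shown from -2 to 2). The lines of the 15 replication and nucleotide members (dark blue) and the 15 mitosis members (dark red) lie to the right of the line of all 16142 symbols (grey) over most of their range, with medians of 0.16 and 0.50 against 0.00199; pale lines are the other genes of each pathway.

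Of the 2 remaining markers, Hmgb2, a chromatin protein of dividing cells, had 612 and 1110 reads, with a ratio of 1.52 (95% interval 1.37 to 1.67). Stmn1 (stathmin), which destabilises microtubules, had 320 and 449 reads, a ratio of 1.17 (1.01 to 1.36).

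The 2 kinase inhibitors among the members had lower values with TMM. Cdkn1b (p27), an inhibitor of cyclin-dependent kinases in resting and differentiating cells (chr6:134920401-134925513, plus strand), had 1063 WT reads and 852 in the library labelled ERAP1+/-. Its ratio was 0.670 (95% interval 0.611 to 0.733), the lowest of all members, and it was lower under each of the scalings computed. Cdkn1a (p21), the inhibitor induced by p53, had 4000 and 4128 reads, a ratio of 0.862 (0.825 to 0.901). Its direction turned relative to the epithelium markers, to a log2 difference of 0.07. Myc, which encodes a growth factor-responsive transcription factor, had 12 and 35 reads, a ratio of 2.44 (1.23 to 5.15), an interval that spans a wide range because the reads were few.

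**Figure D4:**
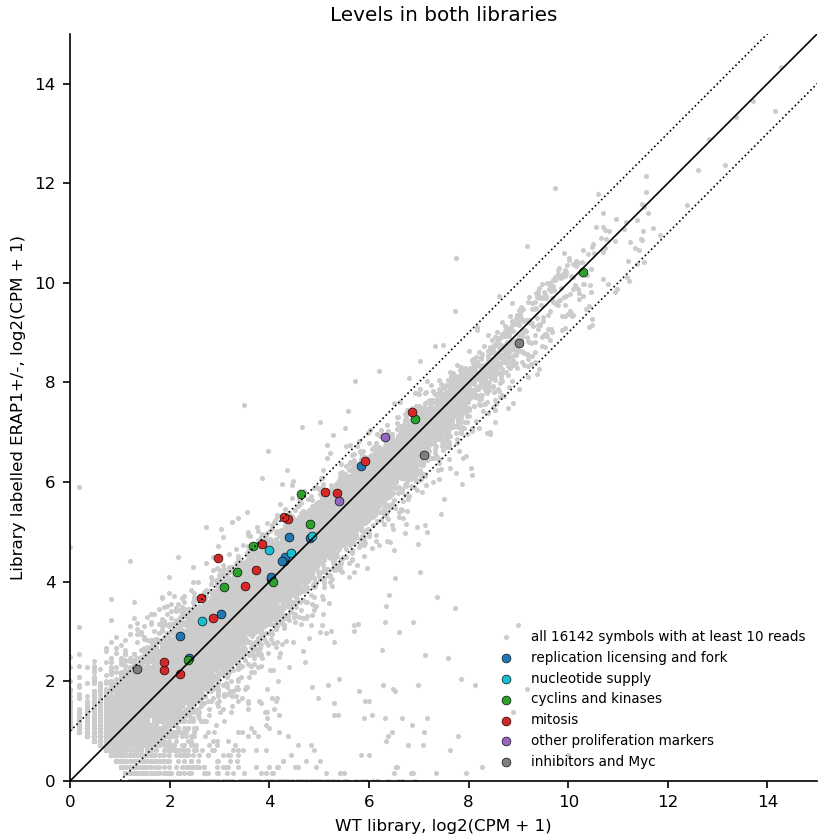
Level of the 44 members (coloured by role) and of all 16142 symbols with at least 10 reads (grey) in the WT library (x axis) and the library labelled ERAP1+/- (y axis), both as log2(CPM + 1). The solid line marks equal levels and the dotted lines a 2-fold difference; Cdk1, Ccnb2, Cenpa and the less counted Bub1b lie above the upper dotted line, and Cdkn1b lies below the solid line.

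Ratios between members inside each library do not depend on the scaling. For every 100 reads of the replication and nucleotide members, the mitosis members had 127.7 reads in WT and 163.5 in the library labelled ERAP1+/-. The change in this ratio was 1.28 (95% interval 1.19 to 1.38), so the mitosis members differed by more than the replication members beyond the counting error of independent reads. Against Cdkn1a and Cdkn1b together, the mitosis members changed by 1.90 (1.79 to 2.02). Against 100 reads of the intestinal epithelium markers, they had 3.41 and 6.52 reads, a change of 1.91 (1.82 to 2.003), and the replication and nucleotide members had 2.67 and 3.99, a change of 1.49 (1.41 to 1.58). Among single genes, Cdk1 changed by 2.36 against Cdk2 (1.73 to 3.20) and by 1.75 against Cdk4 (1.36 to 2.25). Ccnb2 changed by 1.69 against Ccnd1 (1.30 to 2.21) and Ccnb1 by 1.49 (1.11 to 2.03). These ratios were chosen with the values known and are descriptions of the 2 libraries.

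The other genes of the same pathways were taken from 8 lists that share no gene with the members. Of their 205 genes, 202 had at least 10 reads and 152 of these were higher in the library labelled ERAP1+/-, with a median log2 difference of 0.25. The interval lay above 1 for 84 and below 1 for 17, against 20.6% and 23.8% of all symbols. Of the 96 genes at the level required for a call, 2 were called higher and 1 lower. Among all symbols at that level, 1.39% were called higher and 3.96% lower.

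The list of mitosis was the most one-sided of the larger lists: 63 of 68 genes were higher, the median was 0.41, and the interval lay above 1 for 40 and below 1 for 3. Hmmr, a spindle protein, was the gene called past 2-fold, with 89 and 223 reads. The list of replication had a median of 0.15, with 31 of 46 higher. Its intervals lay above 1 for 11 of 46, near the 20.6% of all symbols, and below 1 for 2. None of its 16 genes at the level required for a call was called. Orc1, a subunit of the origin recognition complex, was among its highest, with a log2 difference of 0.96. Its lowest differences were those of Pola2, a subunit of DNA polymerase alpha, with -0.76, and of Chaf1b, a histone chaperone subunit, with -0.64. The list of nucleotide supply had a median of 0.46 and 10 of 13 higher, from Dctd (dCMP deaminase) at 1.61 on 3 and 30 reads and Shmt2 (mitochondrial serine hydroxymethyltransferase) at 0.99 to Ctps (CTP synthase) at -0.11 and Dck (deoxycytidine kinase) at -0.82.

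Among cyclins, kinases and their regulators, 14 of 18 were higher with a median of 0.13. Cks2, a small partner of the kinases, was at 0.94 and Cdkn3, a phosphatase of the kinases, at 0.62, whereas Ccnd3, a D-type cyclin, was at -0.33 and Pkmyt1, an inhibitory kinase of Cdk1, at -0.42. The transcription factors of the E2F, RB, MYB and FOXM1 families had a median of 0.06, with 11 of 19 higher. E2f2 was the 1 gene of these pathways called lower, with 457 WT reads and 268 in the library labelled ERAP1+/-, and it was called neither with the total count in place of TMM nor relative to the epithelium markers. The list of kinase inhibitors and p53 response had 8 of 17 higher and a median of -0.08, which turned to 0.04 with the total count. Of its other kinase inhibitors, chosen after their values were seen, Cdkn2b had 285 and 403 reads, a ratio of 1.18 (1.01 to 1.38), and Cdkn1c, Cdkn2d and Cdkn2c had ratios of 1.28, 1.07 and 0.936 with intervals that included 1. The list ran from Trp53 itself at 0.53 and Ccng1, a p53 target, at 0.39 to the antiproliferative genes Btg2 at -0.73 and Ccng2 at -0.88.

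The genes around Myc were mixed. The network of MYC and its partners had 5 of 10 higher with a median of 0.03, from Mxd3, a repressor of the network, at 0.65 on 3 and 11 reads and Mycl, a MYC family factor, at 0.49, to Max, the partner of MYC, at -0.56 and Mxd1, another repressor, at -0.64. The targets of MYC in ribosome assembly and polyamine synthesis had 10 of 11 higher and a median of 0.38, with intervals above 1 for 9. Srm, spermidine synthase, was called past 2-fold with 53 and 168 reads, a ratio of 2.65 (95% interval 1.93 to 3.68).

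**Figure D5:**
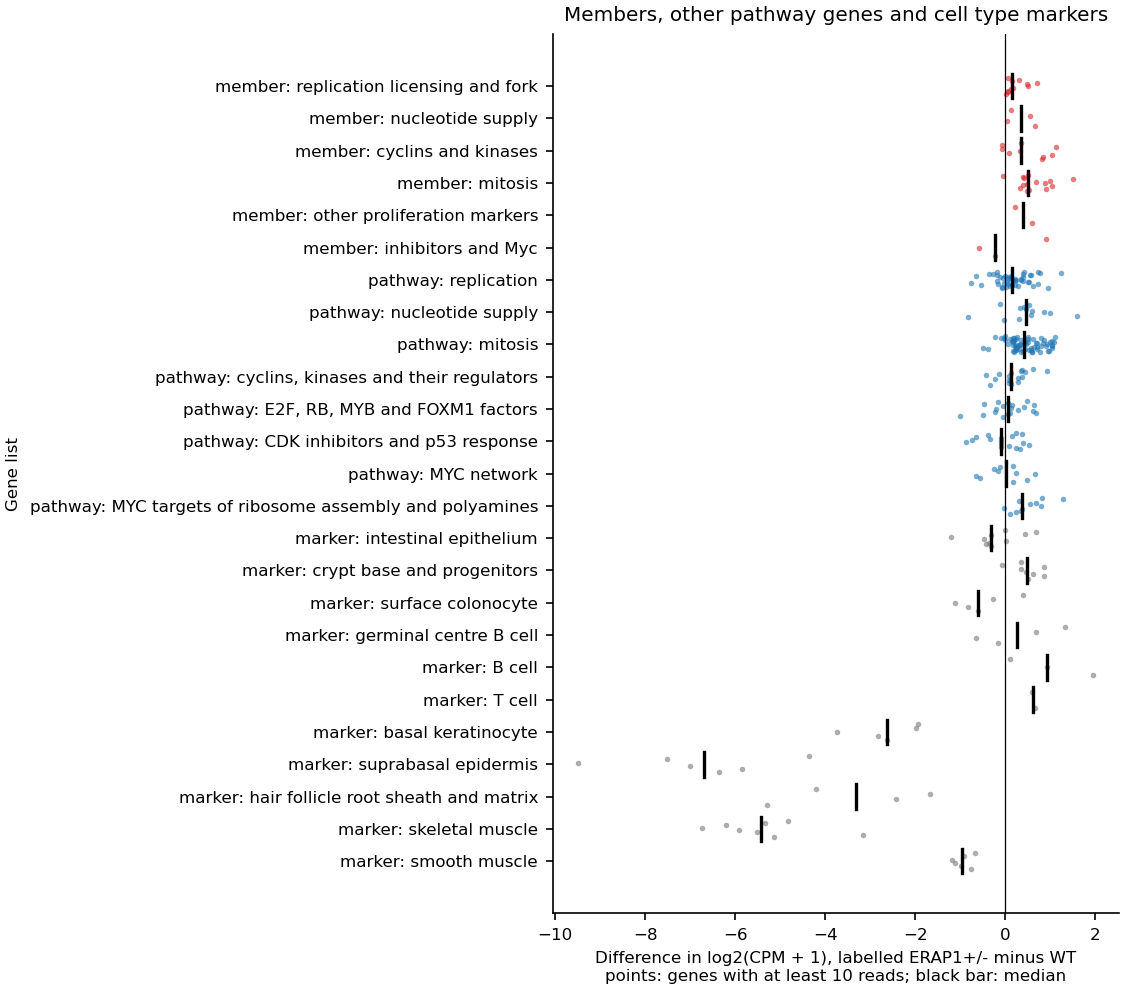
Difference in log2(CPM + 1), library labelled ERAP1+/- minus WT (x axis), of each gene with at least 10 reads (points) and the median (black bar) in the member roles (red), the other pathway lists (blue) and the cell type marker lists (grey), listed on the y axis. The medians of the mitosis lists lie at 0.50 and 0.41, and the skin and skeletal muscle markers lie far to the left.

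Markers of cell types also differed between the libraries, some higher and some lower, and their part in the members' differences was not tested. The crypt base and progenitor markers, the compartment in which cells divide, had 7 of 8 higher with a median log2 difference of 0.49 and summed reads of 3834 and 6544, a ratio of 1.43 (95% interval 1.37 to 1.48). The surface colonocyte markers had 4 of 5 lower with a median of -0.60 and 45761 and 34740 reads, and the intestinal epithelium markers had 7 of 10 lower with a median of -0.31 and 79640 and 78106 reads. Intestinal epithelium genes were abundant in both libraries, so the labelled tissue is borne out in each.

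Markers of B cells summed to 33 WT reads and 112 in the library labelled ERAP1+/-, a ratio of 2.83 (95% interval 1.91 to 4.32). Those of T cells summed to 23 and 62, a ratio of 2.25 (1.38 to 3.81). Only 3 of 4 B cell and 2 of 5 T cell markers had at least 10 reads, and none reached the level required for a call. The single intervals of these 2 T cell markers included 1. Markers of germinal centre B cells, which divide fast, summed to 188 and 201 reads, a ratio of 0.893 (95% interval 0.728 to 1.10), with 2 of the 6 at 0 in the library labelled ERAP1+/-. Basal keratinocyte markers, of the dividing layer of skin, summed to 1395 and 192 reads, with 5 of 5 lower. Suprabasal epidermis markers summed to 18283 and 102, skeletal muscle markers to 7554 and 168 and hair follicle markers to 493 and 0. Smooth muscle markers had 6 of 6 lower, with 65199 and 40125 reads. With the skin and striated muscle genes left out of the totals and the TMM factors, the median of the members was 0.41 and 39 of 44 were higher, as with all genes. Leaving them out changes only the scaling, and any member reads from skin or muscle stay in the counts. The part of such reads in the members' differences was not tested.

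Some members can share reads with other genes. The last 300 bases of the transcripts of Ccnb1, Hmgb2, Mcm7, Stmn1, Rrm2 and Tyms match pseudogenes or other copies at 95% identity or more over at least 75 bases, and those of Cenpf, Mcm5, Ube2c and Cdk4 match stretches of other transcripts, so their counts are uncertain to that extent. The last 500 bases of Ube2c overlap Tnnc2, a troponin of skeletal muscle on the opposite strand with 898 WT reads and 11 in the library labelled ERAP1+/-. The last 500 bases also overlap counted genes on the opposite strand for Mcm7 (Cops6), Cdc20 (Elovl1), Ccna2 (Exosc9), Cdk4 (Tspan31), Ccnd1 (LTO1), Gins2 (Gse1) and Kif20a (Cdc23). Whether the counting used strand is not stated in the sources used here. Those of Cdt1 overlap Gm20388 on the same strand, an annotated gene without a symbol in the counts.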

How the data were processed

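Total RNA of intestine from WT and ERAP1+/- mice, pooled from 3 mice per genotype, was sequenced as 1 QuantSeq 3′ library each. The values the authors deposited are whole-number counts for each gene symbol, and they were taken to be raw, without normalization. The methods describe both STAR with HTSeq and Bowtie2 with RSEM, the submitters' processing notes name Bowtie2, RSEM and GRCm38, and which chain made the counts is not stated. Tags at transcript ends do not scale with transcript length.

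TMM factors (0.958 for WT and 1.04 for ERAP1+/-) came from edgeR 4.0.16 (R 4.3.3). Totals of 8114826 and 8907515 reads limit the precision: a member with 12 and 35 reads has an interval of 1.23 to 5.15. A gene was called where log2(CPM + 1), with a pseudocount of 1, differed more than 2-fold and was at least 4 in 1 or both libraries. Medians and counts of higher genes used genes with at least 10 reads over both libraries. Intervals of read ratios are exact conditional binomial 95% intervals (scipy 1.17.1), except those against the epithelium markers, which use a normal approximation on the log scale. The calls and intervals were tested on simulated data with independent reads and known library sizes. That checks the calculation and does not cover PCR copies, the spread between mice or errors of scaling. Quasi-likelihood tests could not be fitted with 1 library per genotype.

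The members and lists were chosen with earlier results of these data known, and the cell type and pathway lists come from textbook knowledge. All 44 members are named, as are the called genes of each pathway list or, where none was called, its 2 highest and 2 lowest genes, of which 1 is not reported here. Other scalings, pseudocounts, filters and fold thresholds were tried. Coordinates come from GENCODE M21 on GRCm38 and promoters from RefSeq on GRCm38.p6. Promoters of Aurkb, Ccna2, Ccnd1, Ccnd2, Gins2, Kif20a, Mcm4, Myc, Stmn1 and Tpx2 were not analysed here.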

Additional observations from a re-analysis of the deposited data

How the results depend on the processing

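Over the scalings, pseudocounts and filters computed, the median of all members stayed between 0.34 and 0.68, that of the mitosis members between 0.50 and 0.78, and that of the replication and nucleotide members between 0.16 and 0.44. The number of members called past 2-fold depended most on the settings: 3 as reported, 4 with size factors of DESeq2 1.42.0, a pseudocount of 0.1, totals without mitochondrial genes and ribosomal RNA, or with no filter on low values, 6 with the total count (adding Cdc20, Plk1 and Ube2c) and 8 relative to the epithelium markers (adding Ccna2 and Ccnb1 as well). It was 10 at 1.5-fold and 0 at 4-fold. The number of all symbols called higher also rose, from 111 as reported to 166 with the total count and 281 relative to the epithelium markers. The ratio of the members' summed reads moved from 1.08 to 1.18 with the total count, to 1.32 relative to the epithelium markers and to 1.18 without Ccnd2, an alternative chosen after seeing the data. The ratios within each library and the comparison with symbols of like read numbers were also added after seeing the data. The cause of these differences beyond the scaling itself was not tested. Values for single members and pathway lists under the alternatives were set against the distance from the middle of the counting interval to its ends, on the log2 scale. For a pathway list, the median of this distance over its genes was used. Of these values, 291 moved by no more than that distance and 21 by more. No paired analysis was possible because there is 1 library for each genotype. Depth limits the members with fewest reads over both libraries (Myc, Bub1, Aurkb, Kif20a, Ccne1 and Uhrf1), for which a difference smaller than their interval was not detectable.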
